A study of Mus musculus with 384 samples.

Results

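Trh encodes the precursor of thyrotropin-releasing hormone (TRH), and its level was followed across single cells of 4 mouse pluripotent stem cell lines sequenced by Smart-seq2, a full-length mRNA method that counts reads and not molecules. Trh was 1 gene of the 31617 in the count table. It was chosen by its CPM in these same cells, having been seen high in few cells of an EpiSC line, so its levels are a description and carry no test. The FS cell lines 5ar1 and 5ar2, both labelled formative, were kept in A3XR, a medium of low activin A with the tankyrase inhibitor XAV939, which lowers Wnt signalling, and the retinoic acid receptor inverse agonist BMS493. The epiblast-derived stem cell (EpiSC) lines were AFX6, in activin A, Fgf2 and XAV939 (AFX), and AF32, in activin A and Fgf2 only (AF). All 4 lines were grown in N2B27 on fibronectin, and 96 cells of each were sorted with 1 cell per well. Each EpiSC medium is represented by 1 line, so that line and medium cannot be told apart, and which embryo strain and passage each line had is not given in the sources used here. Levels are counts per 1000000 counts of a cell (CPM), and the cells kept were the 326 of 384 with at least 3000000 counts, which were 90 of 5ar1, 90 of 5ar2, 66 of AFX6 and 80 of AF32. Their totals ran from 3022666 to 6686007 counts. Kept cells above 5 CPM of Trh are called Trh cells here, and there were 6 in AF32 and 18 in 5ar1.

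TRH is a peptide hormone of 3 residues. It is best known from neurons of the hypothalamus, where it drives release of thyrotropin from the pituitary. The cell makes a long precursor that holds several copies of the hormone, each flanked by pairs of basic residues. Prohormone convertases cut at these pairs, a carboxypeptidase trims the ends, a glutaminyl cyclase closes the first residue and the amidating enzyme Pam converts the final glycine to an amide. In the mouse embryo Trh is also known as a gene of the early definitive endoderm. All 4 lines expressed Pou5f1, the central pluripotency factor, above 5 CPM in most kept cells (88 of 90, 89 of 90, 65 of 66 and 78 of 80 in 5ar1, 5ar2, AFX6 and AF32), and Sox17, which defines definitive endoderm, was above 5 CPM in 1 cell of 5ar1, 1 cell of 5ar2 and 0 cells of AFX6 and AF32.

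Trh (ENSMUSG00000005892) lies on the minus strand of chromosome 6 at chr6:92242061-92244650 (GRCm38), as a single annotated transcript of 1384 bases in 3 exons. Its coding region runs over 256 codons in exons 2 and 3. The 5 copies of the hormone unit, shown because they are what the counted transcript encodes, all lie in exon 3, between bases 92242710 and 92243111. Each run below has 8 codons read 5′ to 3′ on the coding strand of the GENCODE M21 transcript, and capitals mark the 4 codons for glutamine, histidine, proline and glycine, with a pair of codons for basic residues on either side. The codon number given with each copy is that of its glutamine codon, where the capitals begin, and not of the first base printed.
copy 1, from codon 77: aaacgcCAGCATCCGGGCaaaagg
copy 2, from codon 109: aaacgaCAGCACCCTGGCcgacgt
copy 3, from codon 154: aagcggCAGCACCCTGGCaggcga
copy 4, from codon 172: aagaggCAGCATCCAGGCcggagg
copy 5, from codon 203: aaacgtCAGCATCCTGGCaaaagg
The 4 marked codons were spelled in 4 different ways over the 5 copies, with copies 2 and 3 alike.

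The promoter is shown because Trh went from 0 to 5231 CPM between cells of 1 line. The 100 bases before the start site (chr6:92244651-92244750, minus strand, RefSeq sequence on GRCm38.p6) are given 5′ to 3′ with motif matches in capitals.
Trh promoter: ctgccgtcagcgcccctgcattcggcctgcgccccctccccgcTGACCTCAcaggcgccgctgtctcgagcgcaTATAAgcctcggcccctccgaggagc
Searches for 4 motifs were run over the 250 bases before the start. TGACCTCA, known in the TRH promoter as an element that CREB and thyroid hormone receptors can bind, was searched on both strands and was found at positions -57 to -50. It was present in 1.9% of 27025 promoters of the same length. TATAA, searched on the given strand, was found at -26 to -22 and was present in 16.7% of promoters. TGTTTAC, a forkhead core, and TGACGTCA, the full cAMP response element, both searched on both strands, had no match there, against 3.1% and 1.6% of promoters. These motifs do not overlap one another. Among the 15 genes whose level was most like that of Trh in AF32, 12 had a promoter sequence and 1 of them, Zbtb42, held TGACCTCA. Among the 10 such genes of 5ar1, 9 had a sequence and 0 held it.

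In AF32, 6 of 80 cells were above 5 CPM of Trh (7.5%, exact 95% interval 2.8% to 15.6%), 3 were above 50 CPM and 1 was above 500 CPM. These intervals, and those of folds below, cover counting error only. The 6 cells are named by their number in the line. Cell 66 had 5231 CPM, cell 26 had 196.7 CPM and cell 12 had 58.8 CPM. Cells 72, 84 and 89 had 25.4, 23.7 and 16.1 CPM. Nothing lay between this lowest cell and the other 74, which reached at most 0.978 CPM, or 4 counts. Of those 74, 60 had no count.

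Cell 66 stood alone: it held 94.1% of the summed Trh CPM of AF32, or 25724 of its 27345 Trh counts. The mean of AF32 was 69.5 ± 585 CPM (SD over 80 cells) with it and 4.14 ± 23.3 CPM without it. The description of Trh as high in few AF EpiSCs therefore rests, at 500 CPM, on 1 cell.

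In the FS line 5ar1, more cells were above 5 CPM than in AF32, with lower peaks. There were 18 of 90 above 5 CPM (20%, 12.3% to 29.8%), 10 above 50 CPM and 0 above 500 CPM, where 0 of 90 cells allows a share of up to 3.33%. The highest cells, 11 and 85, had 390 and 361 CPM, the next pair, 42 and 17, had 111 and 110 CPM, and the median of the 18 was 51.0 CPM. Again a gap separated them from the rest, with the lowest of the 18 at 8.39 CPM and the highest of the other 72 at 0.350 CPM. The mean was 16.8 ± 58.9 CPM (SD, n = 90).

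In 5ar2, the other FS line in the same medium, 8 of 90 cells were above 5 CPM (8.89%, 3.92% to 16.8%) and 0 were above 50 CPM. They ran from 7.51 to 44.5 CPM, with a median of 17.3 CPM. A single cell lay in the gap, cell 41, at 3.24 CPM (15 counts). The mean was 2.0 ± 7.2 CPM (SD, n = 90).

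AFX6, the EpiSC line with the tankyrase inhibitor, had 0 of 66 cells above 5 CPM, which allows a share of up to 4.55%. Its highest cell had 0.596 CPM, and the mean was 0.0456 ± 0.125 CPM (SD, n = 66). The 9 cells of AFX6 with any Trh count held 16 counts together, at most 3 in a cell. Cells with a count but no more than 5 CPM occurred in every line, 7 of 5ar1, 14 of 5ar2, 9 of AFX6 and 14 of AF32, or 7.78% to 17.5% of cells at median totals of 4401630 to 5069880 counts. In AFX6 such cells occurred without any higher kept cell. Whether these low counts are expression was not tested, and only cells above 5 CPM are called Trh cells.

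**Figure D1:**
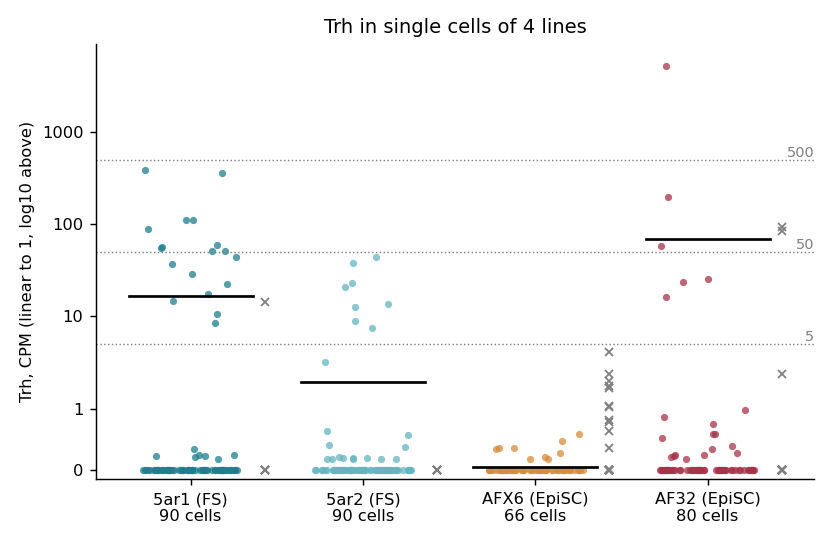
Trh in CPM (vertical axis, linear to 1 and log10 above) in each kept cell (points) of the 4 lines, with the mean of the line as a black bar, crosses for cells below 3000000 counts and dotted lines at 5, 50 and 500 CPM. Kept cells fall into a low band under 1 CPM and a scattered group above 5 CPM, except cell 41 of 5ar2 at 3.24 CPM, while some crosses lie between 1 and 5 CPM, and the AF32 mean of 69.5 CPM is set by 1 cell at 5231 CPM.

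The order of the line means was AF32, 5ar1, 5ar2 and AFX6, and no neighbours in that order differed by more than the SD among cells of the higher line. That SD is the spread among cells and not the error of a mean, so it cannot show that the lines are alike. The median was 0 CPM in all 4 lines. By summed counts, AF32 was 1598-fold above AFX6 (984 to 2796), on 27345 against 16 counts. Without cell 66 that fold was 96.0 (59.0 to 168), on 1621 against 16 counts. Against 5ar1 the direction turned: AF32 was 4.58-fold higher (4.47 to 4.70) with cell 66, and 5ar1 was 3.63-fold higher (3.44 to 3.83) without it. The FS lines differed 8.62-fold (8.03 to 9.27) in the same medium, 5ar1 above 5ar2, and 5ar1 was 349-fold above AFX6 (215 to 610). Each fold compares single lines and has no replicate check.

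The unevenness of Trh was set beside that of other genes as the share of a line's summed CPM held by its 4 highest cells. For Trh this share was 99.2% in AF32, 71.7% and 64.0% in 5ar2 and 5ar1, and 60.1% in AFX6. Among the 4157 genes averaging 50 CPM or more in AF32, the median share was 14.6%, and Trh ranked 1. The next 4 were Car4, a membrane carbonic anhydrase (65.1%), Ccn1, a secreted matricellular protein (58.3%), the transcription factor Sox9 (55.8%) and the AP-1 subunit Jun (53.5%). They had a different highest cell from Trh, namely cell 74 for Car4, cell 86 for Ccn1 and Jun, and cell 1 for Sox9. Among the 10578 genes averaging 5 CPM or more in AF32 the Trh share ranked 22, and among the 10393 of 5ar1 it ranked 127. Without cell 66 the AF32 mean of Trh was under both of these minimum means.

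**Figure D2:**
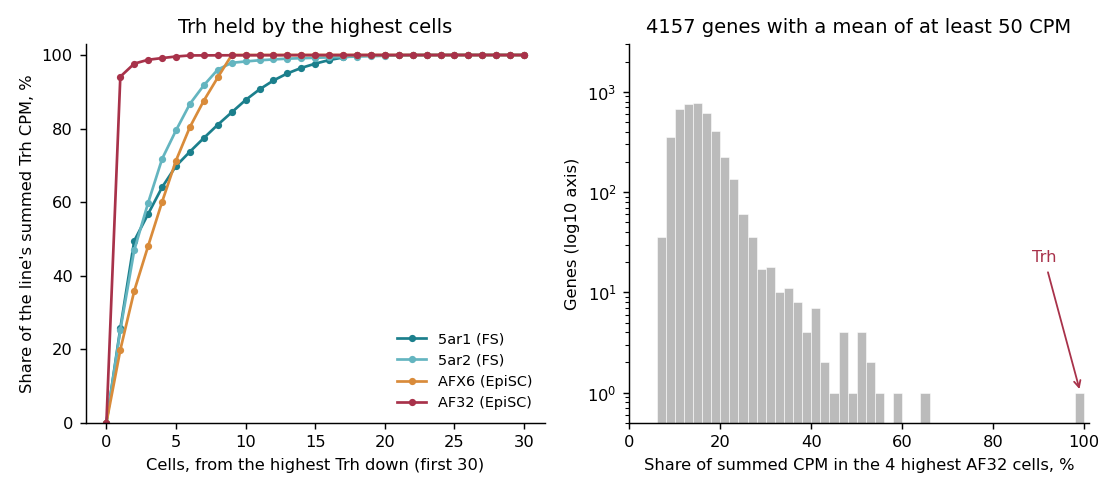
Left, cumulative share of a line's summed Trh CPM (%) against the number of cells taken from the highest down, for the 4 lines; right, the number of genes (log10 axis) by the share of their CPM in the 4 highest AF32 cells (%), for 4157 genes averaging 50 CPM or more. The AF32 curve reaches 94.1% at its first cell, and Trh lies apart at 99.2%, above Car4 at 65.1%.

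Depth did not separate the cells with Trh. In AF32 the 6 cells above 5 CPM had a median total of 4679720 counts and 10451 detected genes, against 4398980 counts and 10320 genes in the other 74. In 5ar1 the 18 cells had a median of 4736630 counts and the other 72 had 4929750 counts. Spearman rho between Trh and the total count of a cell was -0.09 and 0.14 in 5ar1 and 5ar2 and 0.11 and 0.17 in AFX6 and AF32, over the kept cells of each line, which share a culture.

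Cell 66 of AF32 was an ordinary cell by these measures. Its total of 4918024 counts ranked 25 of 80 and its 10437 detected genes ranked 33. Trh took 0.523% of its counts and was 9th among its genes by count, with no correction for gene length. It was the highest AF32 cell for 167 genes above 5 CPM, where the median cell was the highest for 166. Of 1869 genes with a median of at least 100 CPM in the line, 35 were at or under 5 CPM in it, against 41 in the median cell.

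Its pluripotency genes were at the level of the line. Pou5f1 was at 589 CPM (line median 520), Nanog at 428 CPM (384) and Tdgf1, the Nodal co-receptor, at 1364 CPM (1310). Lefty1, a Nodal antagonist, was at 3344 CPM against a median of 3520 CPM. Other genes of the marker lists stood off from the line. Foxa2, a forkhead factor of endoderm and node, was at 79.5 CPM (rank 3 of 80, line median 0). Lefty2, the related Nodal antagonist of streak mesoderm, was at 1061 CPM, the highest in AF32, where the next cell had 663 CPM. Otx2, a homeobox factor of epiblast and anterior endoderm, was at 0.813 CPM against a median of 85.5 CPM, and the epithelial adhesion gene Epcam was at 2.03 CPM against 420 CPM, rank 79 of 80.

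Of the 17 definitive endoderm genes in the table, only Foxa2 was above 5 CPM in cell 66, while the median AF32 cell had 3 and the range was 0 to 6. Their summed level was 83.4 CPM, rank 77 of 80, where the line ran from 5.40 to 3331 CPM. In the summed counts of AF32 this list was mostly Epcam (500 CPM), Otx2 (110 CPM) and Cldn6 (83.6 CPM), beside 7.91 CPM of Foxa2. The low rank of cell 66 thus largely follows its low Epcam and Otx2, and is not a measure of endoderm identity. Sox17, Gata4, Gata6, Gsc, Hhex and Cxcr4 had 0 CPM in cell 66. T and Eomes, transcription factors of the primitive streak, had 0.407 and 0.203 CPM. Of the 14 primitive streak and mesoderm genes, Lefty2 and Fgf8 (64.9 CPM) were above 5 CPM, and their sum was 1127 CPM, rank 2 of 80.

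Outside the named lists, and picked after their values were seen, other genes highest in cell 66 included Tlr5, a receptor for flagellin, at 67.3 CPM with 0 CPM in all 79 other cells, Pld1, a phospholipase D, at 108 CPM (26.3 CPM in the next cell), and Agtr1a, an angiotensin receptor, at 96.2 CPM (56.8 CPM).

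The other 5 AF32 cells did not share this set. Foxa2 was above 5 CPM in 13 of 80 AF32 cells, of which 2 were above 5 CPM of Trh, cells 66 and 12. Cell 12 had 14.4 CPM of Foxa2, and the other 4 had 0 CPM. Lefty2 was above 5 CPM in 12 of 80 cells and Chrd, a BMP antagonist of the node, in 24 of 80, and cell 66 was the only Trh cell among either. T was above 5 CPM in 2 AF32 cells and Eomes in 10, and 0 of these were above 5 CPM of Trh. Conversely, Pou5f1 and Nanog were above 5 CPM in all 6 Trh cells, from 393 to 972 CPM and from 202 to 746 CPM. Otx2 was above 5 CPM in 4 of the 6, against 77.0% of the other 74 cells.

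In 5ar1, Foxa2 and Lefty2 were at or under 5 CPM in all 18 Trh cells. Both were near absent from the whole line, at 0.0023 and 0.288 CPM of its summed counts, so this does not set the Trh cells apart. Sox17 was above 5 CPM in 1 of the 18, cell 20, at 47.1 CPM, which was the only such cell of the line. Eomes was above 5 CPM in 16 of 18 Trh cells, or 88.9%, and in 80.6% of the other 72. Otx2 and Dnmt3b, a de novo DNA methyltransferase of formative cells, were above 5 CPM in all 18, and in 98.6% and 100% of the others. Tdgf1 was above 5 CPM in 2 of 18, or 11.1%, against 41.7% of the others, and Nanog in 15 of 18, or 83.3%, against 55.6%. No test is given for these shares, since cells of 1 line are not replicates. The Trh cells of AF32 and 5ar1 thus had Pou5f1 and, apart from 2 cells, Otx2 in common, and differed in Lefty1 and Eomes as their lines did: Lefty1 had a mean of 3748 CPM in AF32 and 5.41 CPM in 5ar1, and Eomes 5.74 and 60.9 CPM.

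Summed over whole marker lists, the Trh cells of AF32 lay within the range of the other AF32 cells for all but 1 list. A range over 74 cells would mostly hold any 6 cells of the same line. It therefore cannot show that the Trh cells are like the rest. Core pluripotency genes (9 in the table) summed to 1804 to 4263 CPM in the 6 cells and 270 to 5835 CPM in the other 74, formative genes (11) to 712 to 2062 CPM and 383 to 2570 CPM, and node and notochord genes (9) to 739 to 7559 CPM and 38.6 to 11556 CPM. Definitive endoderm genes summed to 83.4 to 1631 CPM and 5.40 to 3331 CPM. Extra-embryonic endoderm genes (9) were the exception, with 351 to 3129 CPM against 79.0 to 2612 CPM. Naive pluripotency (12) and early neural (14) genes reached 238 and 214 CPM in the 6 cells and 293 and 2597 CPM in the others. Trophectoderm (6), fibroblast (7) and germ cell (7) genes reached 56.3, 55.4 and 49.9 CPM, against 77.3, 144 and 124 CPM. In 5ar1, definitive endoderm genes summed to 364 to 2181 CPM in the 18 Trh cells and 237 to 2504 CPM in the other 72. Some sums were mostly 1 gene and are not read as cell types. In the summed counts of AF32, Lefty1 had 3818 CPM and Nodal, the next node and notochord gene, 94.7 CPM. Sparc had 666 CPM and Col4a1, the next extra-embryonic endoderm gene, 9.15 CPM.

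**Figure D3:**
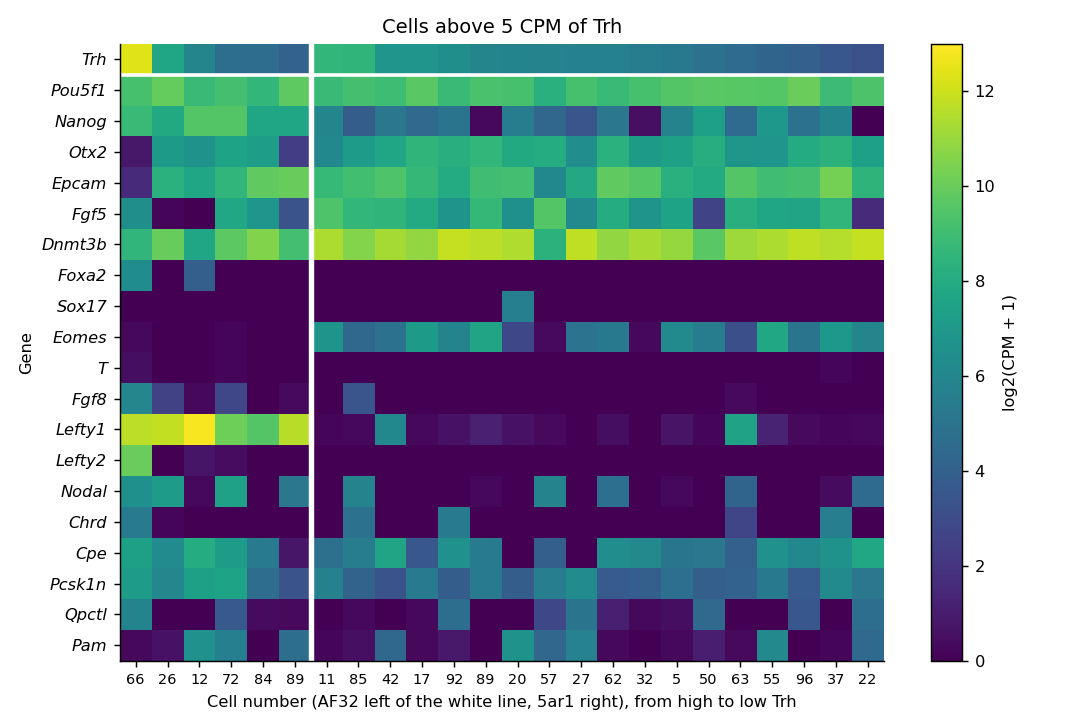
Level as log2(CPM + 1), in colour, of Trh and 19 marker and TRH processing genes (rows) in the 6 AF32 and 18 5ar1 cells above 5 CPM of Trh (columns, from high to low Trh in each line). Cell 66 of AF32 has 5231 CPM of Trh with Foxa2 and Lefty2 on and Otx2 and Epcam at 0.813 and 2.03 CPM, and the other Trh cells do not repeat this set.

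Genes that went with Trh were looked for as Pearson r of log2(CPM + 1) across the cells of 1 line, among genes above 5 CPM in at least 5 cells and with a mean of at least 5 CPM. No r is given a p. In AF32, over 80 cells and 10554 genes, r ran from -0.48 to 0.49, and 34 genes were above 0.3 (0.322%). In 5ar1, over 90 cells and 10375 genes, r ran from -0.42 to 0.38, and 19 genes were above 0.3 (0.183%). AFX6, which had no cell above 5 CPM of Trh, gave 52 genes above 0.3 (0.503%) and a highest r of 0.45 over 66 cells. More genes thus passed 0.3 in the line where Trh was near 0 than in either AF32 or 5ar1. AFX6 also had the fewest cells, and r spreads more over fewer cells. The 99th percentile of r was 0.270 in AFX6, 0.246 in AF32 and 0.231 in 5ar1. In 5ar2, with 8 Trh cells of 90, 7 genes were above 0.3 (0.068%). The part of cell number in these counts was not tested.

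**Figure D4:**
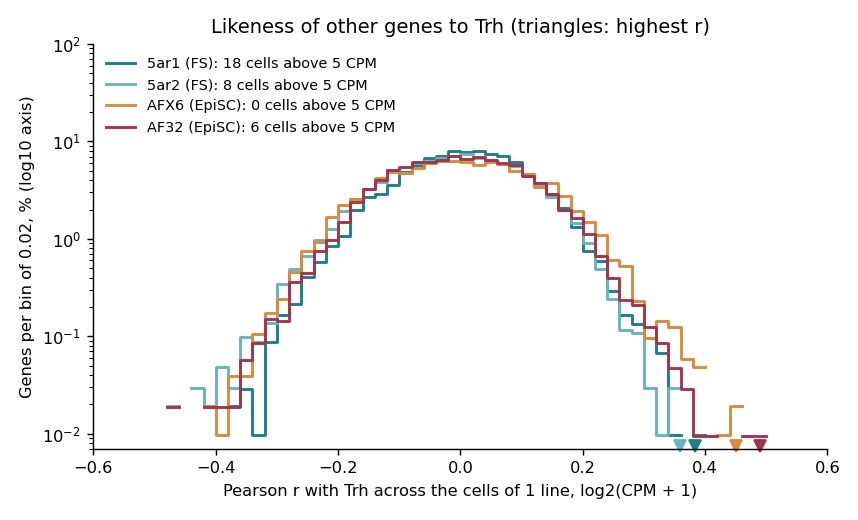
Percent of genes (log10 axis) per bin of Pearson r with Trh across the kept cells of each line, with triangles at the highest r. The 4 curves lie over each other, and AFX6, with 0 cells above 5 CPM of Trh, reaches 0.45, between 5ar1 at 0.38 and AF32 at 0.49.

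The highest r in AF32 were those of Med12l, a Mediator subunit (0.49), Slc38a3, a glutamine transporter (0.47), Polk, a translesion DNA polymerase (0.40), Lrrc20 (0.39) and Aga, a lysosomal enzyme (0.38). Med12l was above 5 CPM in 3 of the 6 Trh cells and in 8 of the other 74, with 144 CPM in cell 66. Slc38a3 was above 5 CPM in 3 of the 6 and in 5 of the 74, with 148 CPM in cell 66. The other 10 of the first 15, BC048403, AA386476, Rnf135, Prkar2b, Zfp319, Ctf1, Galnt3, Zbtb42, Gm32618 and Mfsd8, had r from 0.33 to 0.37. Each of the 15 was above 5 CPM in 2 to 5 of the 6 Trh cells, and all 15 were above 5 CPM in cell 66.

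The lowest r in AF32 belonged to Drap1, a transcriptional corepressor (-0.48), Vbp1, a prefoldin subunit (-0.46), Ssr3, of the translocon (-0.42), Dynlrb1, a dynein light chain (-0.40), and Gabpb1, a GABP subunit (-0.39). Drap1 was above 5 CPM in 2 of the 6 Trh cells and in 72 of the other 74. Vbp1 was at 2.03 CPM in cell 66 and above 5 CPM in every other AF32 cell. These genes were picked as extremes of 10554, and their values depended on the measure. By Spearman rho the 5 had a median of -0.12, with Vbp1 at -0.03 and Dynlrb1 at -0.02, and without the 2 cells with the most Trh the r of Vbp1 was -0.001. The 15 highest had a median of 0.35, which was 0.21 by Spearman rho and 0.19 without those 2 cells.

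In 5ar1 the first 10 were Xlr3a, an X-linked lymphocyte-regulated gene (0.38), Ccdc181 (0.36), Psmd12, a proteasome subunit (0.33), Tmem123 (0.33), Zfp65, Arpc3, Akap13, Ube2e2, 2810002D19Rik and Fam19a4 (0.32 to 0.33). Xlr3a was above 5 CPM in 9 of 18 Trh cells and in 12 of the other 72. Psmd12 was above 5 CPM in all 90 cells, with a median of 414 CPM in the Trh cells and 316 CPM in the others.

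The likeness was weak between lines. Of the 100 genes with the highest r in each line, 2 were shared, AI464131 and Mtmr11, or 2% of each list, where 100 genes are 0.948% of those measured in AF32 and 0.964% of those in 5ar1. Across the 9779 genes measured in both, the r of AF32 and the r of 5ar1 had a Pearson correlation of 0.01, a value over genes, which are not independent. Of the first 15 of AF32, 10 were measured in 5ar1, with a median r of 0.09 there, and 8 of the 10 were positive, as were 53.1% of all genes. The first 10 of 5ar1 had a median r of 0.05 in AF32, and 7 were positive, as were 49.5% of all genes. The 100 highest of AF32 had a median r of -0.01 in 5ar1 and the 100 highest of 5ar1 had 0.03 in AF32, where the medians over all genes were 0.01 and 0.00. No measured gene of the 16 marker and TRH lists was above 0.3 in either line.

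Apart from Nr2c2 in AF32, no measured gene next to Trh had r above 0.3 with it in AF32 or 5ar1. Rbsn, an endosomal fusion factor 27.1 kb away and the nearest on the lower-coordinate side, had means of 26.4 to 34.4 CPM in the 4 lines and r of 0.15 in AF32 and -0.03 in 5ar1. Prickle2, a planar polarity gene 126 kb away on the other side, had means of 3.65 to 7.57 CPM and 0 CPM in cell 66. Nr2c2, an orphan nuclear receptor 67.8 kb away, had r of 0.32 in AF32 and -0.02 in 5ar1. Mrps25, of the mitochondrial ribosome, had r of 0.07 and 0.06. Adamts9, an extracellular protease, had r of -0.11 in AF32, with a mean of 14.2 CPM there and 0.203 CPM in cell 66. Fgd5, Gm44249, A730049H05Rik, Gm15737 and 9530026P05Rik had means under 5 CPM in every line.

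The machinery that makes TRH from its precursor was examined in the summed counts of a line's kept cells, which is where the FS lines can be tested against the EpiSC lines, 2 against 2. With edgeR's quasi-likelihood test, calling a gene where its Benjamini-Hochberg adjusted p was below 0.05 and its log2 fold change beyond 1.4 either way, 0 of the 13 processing genes passed, and the share called over all 22606 genes tested was 0%. At an unadjusted p under 0.05, 2 of the 13 passed, beside 16.1% of all genes. The median log2 fold change of the 13, FS over EpiSC, was -0.56, beside -0.01 over all genes. On simulated counts this test recovered 200 of 200 genes changed by 3 on the log2 scale at a dispersion of 0.05 and 0 at the 0.653 estimated from these lines. DESeq2 called 1467 genes of 21291 in the same sums (6.9%), 723 higher in FS cells (3.4%) and 744 higher in EpiSCs (3.49%), and Pcsk2 and Pcsk1n were the 2 processing genes among them. The difference between the EpiSC media enters the spread of these tests.

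The convertases that cut prepro-TRH in neurons are Pcsk1 and Pcsk2. Pcsk2 had 13.5 and 16.3 CPM in the FS lines 5ar1 and 5ar2, and 1.1 and 0.0169 CPM in the EpiSC lines AFX6 and AF32. Both FS lines were thus above both EpiSC lines, with an adjusted p of 0.359 by edgeR and 0.0117 by DESeq2. In 5ar1, 7 of the 18 Trh cells, or 38.9%, were above 5 CPM of Pcsk2, against 36.1% of the others, and in AF32 no cell was. Pcsk1 was at 0.645, 0.0023, 4.62 and 0.00281 CPM in the 4 lines in the same order, and 0 Trh cells of AF32 or 5ar1 were above 5 CPM of it. Among the other cells, 0% of AF32 and 4.17% of 5ar1 were. The AFX6 levels of both convertases rested on single cells. In AFX6, 1 cell was above 5 CPM of Pcsk1, at 282 CPM, and 1 of Pcsk2, at 82.8 CPM. Other convertases were present in every line, among them Furin at 7.93 to 12.6 CPM, Pcsk4 at 8.61 to 17.0 CPM and Pcsk7 at 5.04 to 15.8 CPM. In cell 66, Pcsk7 was at 101 CPM (rank 3 of 80), Pcsk4 at 41.9 CPM and Furin at 6.7 CPM, with Pcsk1, Pcsk2, Pcsk5 and Pcsk6 at 0 CPM.

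For the later steps, Cpe, the carboxypeptidase of the secretory pathway, had 54.9, 56.0, 69.1 and 142 CPM in 5ar1, 5ar2, AFX6 and AF32. It was above 5 CPM in 5 of 6 AF32 cells with Trh (83.3%), against 85.1% of the others, and at 167 CPM in cell 66. In 5ar1 it was above 5 CPM in 16 of 18 cells with Trh (88.9%), against 79.2% of the others. Qpct, the secreted glutaminyl cyclase, was at 0 to 0.483 CPM in the lines, and Qpctl, its Golgi relative, at 10.2 to 23.1 CPM. Pam had 14.1 and 13.3 CPM in the FS lines and 33 and 24 CPM in AFX6 and AF32, with an adjusted p of 0.217 by edgeR and 0.0141 by DESeq2. In cell 66 Pam was at 0.203 CPM. It was above 5 CPM in 3 of 6 AF32 cells with Trh (50%), against 39.2% of the others. In 5ar1 it was above 5 CPM in 6 of 18 cells with Trh (33.3%), against 41.7% of the others. Pcsk1n, which inhibits Pcsk1, was at 23.3 and 37.1 CPM in the FS lines and 87.9 and 82.2 CPM in the EpiSC lines, a log2 fold change of -1.4995, with an adjusted p of 0.190 by edgeR and 0.00039 by DESeq2. It was above 5 CPM in all 6 AF32 and all 18 5ar1 cells with Trh, against 87.8% and 79.2% of the others.

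Transcripts of Trhr and Trhde were near absent. Trhr, a TRH receptor, and Trhde, the enzyme that degrades TRH outside cells, were at 0 CPM in AFX6 and AF32 and at no more than 0.0093 CPM in the FS lines. Trhr2, the other receptor gene of the list, was not found in the count table and could not be read. Prep and Pgpep1, cytosolic peptidases that can also cleave TRH, were present. Prep had 161, 165, 127 and 127 CPM, and Pgpep1 had 11.1, 11.9, 19.5 and 84.9 CPM in 5ar1, 5ar2, AFX6 and AF32. This list had 6 genes with counts, of which 3 were tested and 0 passed by edgeR, with Pgpep1 at an adjusted p of 0.280 and, by DESeq2, 0.0172.

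**Figure D5:**
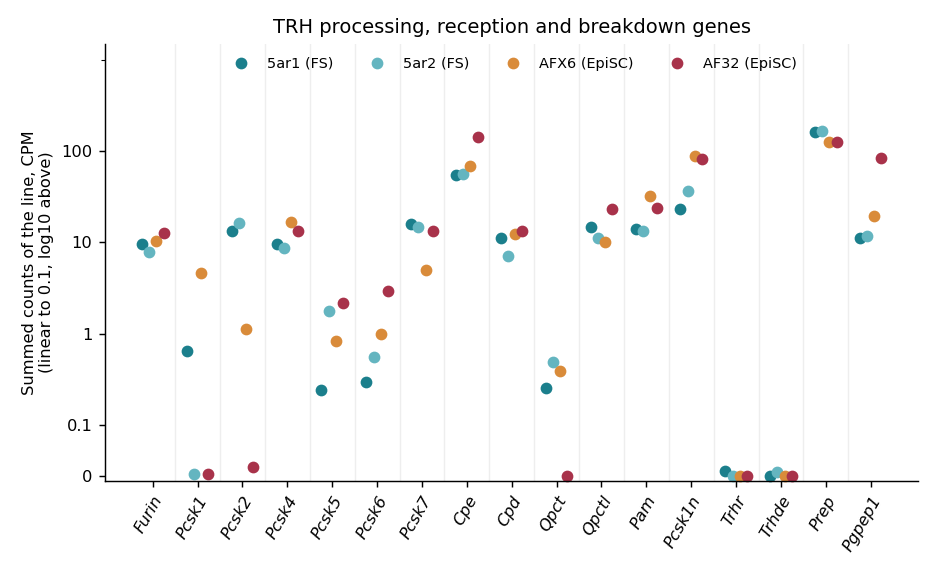
Level of 17 genes of TRH processing, reception and breakdown in CPM of the summed counts of each line (linear to 0.1, log10 above), 1 point per line. Pcsk2 is at 13.5 and 16.3 CPM in the FS lines and at 1.1 and 0.0169 CPM in the EpiSC lines, Pcsk1n has the opposite order, and Trhr and Trhde are at or near 0 in all 4.

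Genes of the secretory granule, in which peptide hormones are stored, were mostly sparse, Ptprn apart. Of 10, 0 passed by edgeR and 3 had an unadjusted p under 0.05, beside 16.1% of all genes. DESeq2 called 3 of the 10, Vgf and Ptprn2 higher in FS cells and Scg5 higher in EpiSCs, beside 6.9% of all genes. Chga, a granule core protein, had 13.4, 10.5, 6.3 and 1.8 CPM in 5ar1, 5ar2, AFX6 and AF32, and the neurosecretory protein gene Vgf had 7.51, 7.93, 1.5 and 2.9 CPM. In cell 66 all 10 were under 1 CPM, summing to 0.203 CPM, where the median AF32 cell had 34.0 CPM.

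Among 27 other peptide hormone precursors in the table, 15 were tested, 0 passed by edgeR and 4 passed by DESeq2, beside 6.9% of all genes, with Penk and Adcyap1 higher in FS cells and Npy and Npb higher in EpiSCs. Adcyap1, Npy and Npb were above 5 CPM in no more than 4 cells of any line. Penk, the enkephalin precursor, had 11.1 and 7.39 CPM in 5ar1 and 5ar2 and 0.009 and 0.00281 CPM in AFX6 and AF32, with an adjusted p of 0.190 by edgeR and 2.9e-27 by DESeq2. Calca, the calcitonin precursor, had 69.9, 110, 78.2 and 153 CPM. Penk was above 5 CPM in 5 of the 18 Trh cells of 5ar1, or 27.8%, which equals its share in the other 72, and in 0 cells of AF32.

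The 15 regulators in the table included the thyroid hormone receptor genes Thra and Thrb, Creb1 and the corepressor Ncor1. Thra had means of 19.2 to 35.1 CPM per cell over the lines, Creb1 12.5 to 34.0 CPM and Ncor1 72.8 to 251 CPM, while Thrb was at 0 CPM in all but AF32, at 0.906 CPM. In cell 66, Thra and Thrb were at 0 CPM, Creb1 at 0.203 CPM and Ncor1 at 148 CPM. Of the 14 tested, 0 passed by edgeR, and 0 by DESeq2. The r of the measured regulators with Trh ran from -0.15 to 0.11 in AF32 and from -0.23 to 0.09 in 5ar1.

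The 11 marker lists were read in the same test of line sums. By edgeR 0 of their tested genes passed, while DESeq2, which called 6.9% of all genes, called 2 of 14 definitive endoderm genes and 4 of 11 formative genes, all higher in FS cells, and 4 of 8 node and notochord genes, all higher in EpiSCs. The 2 endoderm genes were Sox17 and Gata4, each above 5 CPM in 1 cell of 5ar1 and 1 cell of 5ar2, so that each call rests on single cells. T, called higher in EpiSCs in the node and streak lists, had 39.1 CPM in AF32 and 0.382 CPM in AFX6. It was above 5 CPM in 2 AF32 cells, the second at 19.4 CPM. For primitive streak and mesoderm (11 tested) DESeq2 called 2 higher in FS cells and 4 higher in EpiSCs, for core pluripotency (9) 3 and 2, and for early neural genes (12) 3 and 1. For naive pluripotency (10) it called 0 and 2, for extra-embryonic endoderm (8) 1 and 0, for trophectoderm (5) 2 and 0, and for fibroblast (7) and germ cell (5) genes 0 and 0. Of the trophectoderm genes called, Hand1 had 23.5 CPM in 5ar1 but 0.0276 CPM in 5ar2, under AFX6 (0.198 CPM) and AF32 (0.261 CPM). A call on line sums can thus rest on few cells or on 1 line.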

How the data were processed

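Smart-seq2 libraries of 384 mouse cells were used, 96 of each line. The authors aligned reads to GRCm38.p6 with STAR 2.7.3a and deposited counts of uniquely mapped reads per gene from featureCounts 2.0.0 (Ensembl annotation). They also deposited sctransform values, a depth-corrected score, for 23574 genes in 326 cells, which were the cells with at least 3000000 counts, and these values served as an alternative only. Columns that could not be tied to a sample numbered 0.

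CPM divides a count by the total of the cell. Trh, the lists and the tests were chosen with earlier results of these data known. Shares have exact Clopper-Pearson 95% intervals, a count of 0 allows up to 3 counts, and folds of summed counts have exact conditional intervals. Likeness was Pearson r of log2(CPM + 1), with a pseudocount of 1. FS and EpiSC lines were compared by edgeR 4.0.16 (TMM, filterByExpr, quasi-likelihood test) on line sums, with DESeq2 1.42.0 as an alternative (R 4.3.3), tested on simulated data. Python 3.11.15, numpy 2.4.6, pandas 2.3.3, scipy 1.17.1 and matplotlib 3.10.9 were used, with seed 1. Whether separate cultures were sampled is not stated, so the p-values measure only the spread between these lines.

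The genes named were Trh, genes of 16 lists (TRH processing, reception and breakdown, regulators, secretory granule, other hormone precursors and 11 lists of cell type markers), the 15 highest and 5 lowest r in AF32, the 10 highest in 5ar1, genes among the 100 highest in both, 5 neighbours on each side and the 5 most concentrated genes of AF32. Symbols were found for 31565 of 31617 genes.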

Additional observations from a re-analysis of the deposited data

Results flagged for a closer look

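Cells below 3000000 counts were left out of the comparisons, and 7 of them held more than the 3 Trh counts that a count of 0 allows. In AF32, cell 23 had 92.7 CPM (202 counts), cell 67 had 85.0 CPM (154 counts) and cell 34 had 2.359 CPM (5 counts). In 5ar1, cell 80 had 14.2 CPM (36 counts). In AFX6, cells 86, 82 and 74 had 4.08, 2.357 and 1.7 CPM, from 6, 4 and 4 counts. Over the 30 left-out cells of AFX6, 11 had a Trh count, and the summed level was 0.565 CPM (0.376 to 0.817, counting error only), against 0.0481 CPM (0.0275 to 0.0781) in the 66 kept cells. The part of low depth in this was not tested.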

How the results depend on the processing

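The numbers of cells above 5, 50 and 500 CPM stayed within 1.5 times in all cells, in cells with at least 4000000 counts, after thinning to 1000000 counts and with the deposited normalized values, except that AF32 had 5 cells above 50 CPM, not 3, when all cells were taken. The mean of AFX6 was then 0.204 CPM. The highest cell alone held 25.7% of the Trh of 5ar1, 25.2% of 5ar2, 19.8% of AFX6 and 94.1% of AF32. Chosen after seeing the data, the log2 fold of AF32 over AFX6 was 10.64, but 6.586 without the highest AF32 cell and 9.29 with all cells; that of AF32 over 5ar1 was 2.196 but -1.86 without that cell. Genes with r over 0.3 numbered 56 in AF32 with a pseudocount of 10 CPM and 57 in cells within 3 median absolute deviations of detected genes, and 31 in 5ar1 by Spearman rho. Without the 2 cells with the most Trh, the r of Rnf135 and AI464131 in AF32 turned to -0.085 and -0.033, and the 15 highest had a median of 0.19, not 0.35. By Spearman rho that median was 0.21, with 10 of the 15 lower by more than the standard error of r, and the 5 lowest had -0.12, not -0.42. DESeq2 called 1467 genes, 39 of them in the lists (22 higher in FS cells), while edgeR called 0 in the main fit and under its other settings, with 1208 to 5192 genes at an unadjusted p under 0.05; leaving out each line gave 0 to 0 calls. No paired analysis was possible because the shared numbers only count the cells of a line. A cell without a Trh count can hold up to 3 counts of its total undetected, and line and medium cannot be told apart in the EpiSCs.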
